A study of Mus musculus with 6 samples.

Results

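The uncoupling protein genes Ucp1, Ucp2 and Ucp3 and the brown fat genes Cidea, Elovl3, Dio2 and Prdm16 were examined by symbol in the gene count table, 7 genes of 24054. They were selected on their counts in these 6 libraries and the difference between the genotypes, which were known beforehand, so their levels and differences are given as a description, without a p-value. The 6 RNA-seq libraries came from gastrocnemius muscle of male C57BL/6 mice. In the 3 MI4KO mice, Irf4 flox/flox was combined with Myl1-cre, which removes IRF4 from skeletal muscle fibres and leaves Irf4 in the other cells of the muscle. In the 3 MI4OE mice, Myl1-cre was combined with Rosa26-LSL-IRF4, from which IRF4 is overexpressed in the same fibres. Both groups thus carried Myl1-cre, and no flox or wild-type gastrocnemius was analysed here, so each difference stands between a knockout and an overexpressor. The diet is in doubt (high fat by the labels, chow in the study's own account), and ages were not given in the sources used here. Each library is labelled as a separate sample and numbered in the order of deposition, and the p-values below measure only the spread between these samples.

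Uncoupling proteins are carriers of the inner mitochondrial membrane. UCP1 lets protons return to the matrix without ATP synthesis and is the heat-producing protein of brown and beige adipocytes. UCP3 is the skeletal muscle member of the family, and UCP2 is found in many tissues, including immune cells. In brown fat, PRDM16 sets adipocyte identity, the lipid droplet protein CIDEA and the fatty acid elongase ELOVL3 mark the differentiated cell, and the deiodinase DIO2 makes active thyroid hormone locally. IRF4, the factor manipulated here, is known to act on thermogenic genes in brown adipocytes, and as an interferon regulatory factor it binds interferon-stimulated response elements.

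The regions just before the start are shown for Ucp3 and Ucp2, which all libraries held, beside those of Ucp1 and Dio2, which most held at low levels. Of the 7 genes, 5 had an entry among the RefSeq promoters of GRCm38.p6. Cidea and Elovl3 had none. The 250 bases before the start are printed 5′ to 3′ on the strand of the gene, with capitals marking the motifs found in a search of both strands. Of the common TATA box the letters TATAAA were searched. A variant of that box was searched as TATATA, and the pair can overlap in part. The half-site of nuclear receptors was searched as AGGTCA, and the cAMP response element as TGACGTCA. The last motif was the core of the interferon-stimulated response element, a GAAA repeated after a gap of 2 bases.
Ucp1, chr8:83290098-83290347, plus strand: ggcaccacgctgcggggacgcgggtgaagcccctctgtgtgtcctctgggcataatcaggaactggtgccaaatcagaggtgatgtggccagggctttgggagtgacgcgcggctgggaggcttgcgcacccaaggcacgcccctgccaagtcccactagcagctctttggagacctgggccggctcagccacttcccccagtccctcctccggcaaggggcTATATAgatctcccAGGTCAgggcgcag
Ucp3, chr7:100472741-100472990, plus strand: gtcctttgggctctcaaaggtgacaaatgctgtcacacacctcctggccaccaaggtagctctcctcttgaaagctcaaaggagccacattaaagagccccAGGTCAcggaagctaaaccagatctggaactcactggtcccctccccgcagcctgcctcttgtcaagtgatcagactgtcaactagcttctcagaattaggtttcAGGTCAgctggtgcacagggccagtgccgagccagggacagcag
Ucp2, chr7:100493108-100493357, plus strand: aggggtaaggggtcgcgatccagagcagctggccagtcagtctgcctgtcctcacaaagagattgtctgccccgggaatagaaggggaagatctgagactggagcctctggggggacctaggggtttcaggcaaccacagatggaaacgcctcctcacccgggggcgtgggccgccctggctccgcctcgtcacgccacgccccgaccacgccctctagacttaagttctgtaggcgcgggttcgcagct
Dio2, chr12:90739039-90739288, minus strand: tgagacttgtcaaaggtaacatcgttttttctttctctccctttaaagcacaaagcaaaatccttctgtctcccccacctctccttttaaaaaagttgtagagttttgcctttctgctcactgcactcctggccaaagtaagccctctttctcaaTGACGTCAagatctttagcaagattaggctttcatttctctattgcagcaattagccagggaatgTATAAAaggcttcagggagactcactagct

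The Ucp1 window held TATATA at bases 28 to 23 before the start and AGGTCA at bases 14 to 9. The Ucp3 window held AGGTCA at bases 149 to 144 and at bases 44 to 39. The Dio2 window held TGACGTCA at bases 95 to 88 and TATAAA at bases 30 to 25. The windows of Ucp2 and Prdm16 (chr4:154636874-154637123, minus strand) held none of the 5. The interferon-stimulated core was in 0 of the 5 windows, which says only that these letters are not there. Over all 32851 promoters of this length, AGGTCA was in 4607 promoters, TATAAA in 12.4% of them, TATATA in 5.25%, TGACGTCA in 1.55% and the interferon-stimulated core in 2.98%. Ucp3 and Ucp2 are neighbours on chromosome 7, between C2cd3 and Dnajb13.

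Libraries held 18828605 to 29239585 counts, and 3 counts, taken as the floor, were worth 0.101 to 0.148 CPM (counts scaled to the size of the library, with TMM). Irf4 was at 0.246 CPM or less in the MI4KO libraries and at 141 CPM or more in the MI4OE libraries, as their genotype labels say. Gt(ROSA)26Sor, the locus of the Rosa26-LSL-IRF4 transgene, was at 0.778 CPM or less in MI4KO and 69.9 CPM or more in MI4OE. The summed TPM (RSEM abundance adjusted for transcript length) of 10 muscle fibre markers ran from 224000 to 250900 in MI4KO and from 179700 to 241400 in MI4OE. No pair of libraries agreed within sampling noise. MI4OE replicate 1 stood apart with 10620 summed TPM of 9 slow fibre markers, against 15.1 to 1018 in the other libraries. The 14 adipocyte markers summed to 2448 to 6008 TPM in MI4KO, highest in replicate 3, and to 1361 to 2676 TPM in MI4OE. Car3 was the largest part of each sum, at 1803, 2052 and 2863 TPM in MI4KO and 1270, 672 and 1057 TPM in MI4OE. The sum thus weighs that gene most, and Adipoq, Plin1 and Cfd are given separately below. These values touch the results below, and in whole muscle more cells of a type and more RNA per cell cannot be told apart.

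Ucp3 and Ucp2 were present in every library, whereas Ucp1 and Cidea were low in most and high in 1 or 2. Ucp3 had 6727, 1899 and 2886 counts in MI4KO replicates 1, 2 and 3 and 1574, 2173 and 2488 counts in MI4OE replicates 1, 2 and 3. Its levels were 275, 75.2 and 96.9 CPM in MI4KO and 77.4, 76.0 and 110 CPM in MI4OE. MI4KO replicate 1 was 2.51 times the next library, and the other 5 libraries lay within 1.46 times of each other. The groups overlapped, with means of 149 ± 110 CPM for MI4KO and 87.8 ± 19.2 CPM for MI4OE (SD, n = 3 each). The log2 fold change, MI4OE minus MI4KO in the edgeR fit, was -0.77 with a standard error of 0.47, and without MI4KO replicate 1 it was 0.022. The higher mean of Ucp3 in the knockout thus rested on a single library.

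Ucp2 had 318, 181 and 375 counts in MI4KO and 426, 224 and 220 counts in MI4OE. Its levels were 13.02, 7.17 and 12.6 CPM against 21.0, 7.83 and 9.72 CPM. The groups overlapped, with the highest value in MI4OE replicate 1 and the lowest in MI4KO replicate 2. Means were 10.9 ± 3.26 CPM and 12.8 ± 7.10 CPM (SD, n = 3 each). The log2 fold change of Ucp2 was 0.23 with a standard error of 0.40, smaller than its error, and it was -0.32 without MI4OE replicate 1. The 11 macrophage markers measured, of a cell type in which Ucp2 is known to be expressed, summed to 64.3, 70.2 and 121 TPM in MI4KO and to 97.1, 45.6 and 88.9 TPM in MI4OE, and their part in the Ucp2 level was not tested.

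Ucp1 separated 1 library from all others. It had 0, 1791 and 2 counts in MI4KO replicates 1, 2 and 3 and 3, 1 and 0 counts in MI4OE replicates 1, 2 and 3. In MI4KO replicate 2 this was 71.0 CPM, with an exact 95% interval of 67.7 to 74.3 CPM that covers counting error only. The other 5 libraries were at or under the floor of 3 counts, and the 0 counts of MI4KO replicate 1 and MI4OE replicate 3 allowed up to 0.123 and 0.132 CPM by that floor. The group means of 23.7 ± 40.95 CPM and 0.061 ± 0.077 CPM (SD, n = 3 each) therefore describe 1 mouse of 6 and not a genotype. Without MI4KO replicate 2 the MI4KO mean was 0.034 CPM. The ratio of MI4KO replicate 2 to the next library, MI4OE replicate 1, was 481, with an exact counting interval of 164 to 2333. For this and the later ratios of the highest to the next library, both were picked by their values. Such an interval therefore measures counting error alone and tests nothing.

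**Figure D1:**
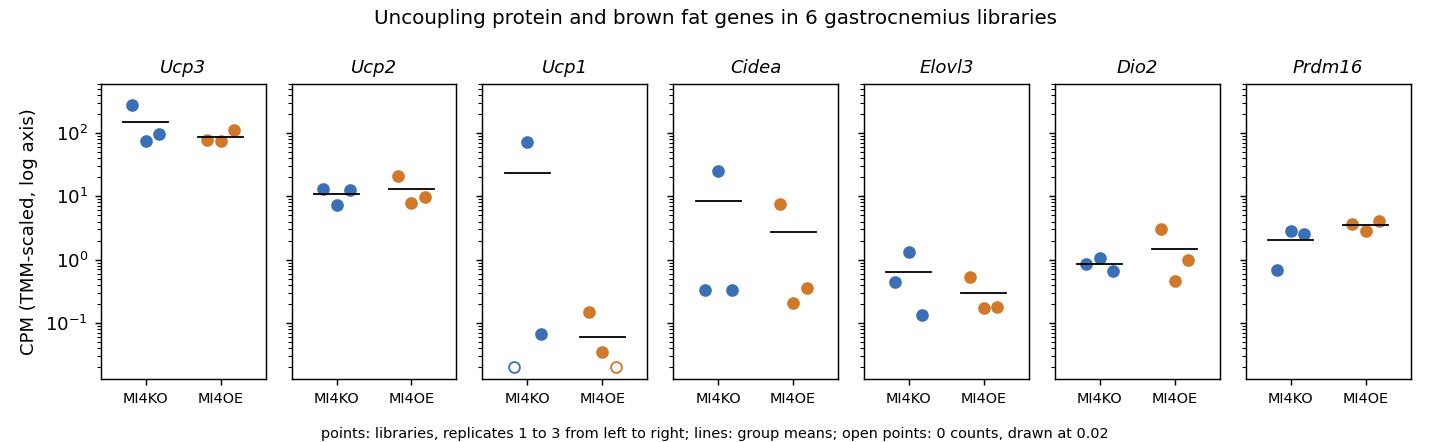
CPM of the 7 genes in each library on a log axis, with points for replicates 1 to 3 from left to right in each genotype, lines for group means and open points for 0 counts. Ucp3 sits between 75.2 and 275 CPM and Ucp2 between 7.17 and 21.0 CPM in all 6 libraries, while Ucp1 reaches 71.0 CPM in MI4KO replicate 2 and 0.148 CPM at most elsewhere.

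How far Ucp1 stood apart was set against every gene in the table, with thresholds chosen after its values were seen. A gene was counted where a library held at least 50 counts of it and at least 10 times the level of the highest other library, or of the floor where that was higher. MI4KO replicate 2 had 1 such gene, and it was Ucp1. MI4KO replicate 3 had 13 and MI4OE replicate 1 had 11, while MI4KO replicate 1 had 1, the metallothionein Mt2, and MI4OE replicates 2 and 3 had 0. The ratio of 481 for Ucp1 was the highest of these in any library, before 42.8 for AA465934 in MI4OE replicate 1.

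On the length-adjusted scale the uncoupling protein transcripts could be set against each other. Their sum was 158, 146 and 69.8 TPM in MI4KO and 56.4, 59.4 and 82.6 TPM in MI4OE. Ucp3 made up 97.3%, 40.1% and 92.9% of it in MI4KO and 86.2%, 94.3% and 95.1% in MI4OE. In MI4KO replicate 2, Ucp1 at 84.1 TPM took 57.7% and exceeded Ucp3 at 58.4 TPM by 1.44 times, whereas its share was 0.248% at most in the other libraries. Ucp2 was the minor muscle member, with shares from 2.22% to 13.5% that were highest in MI4OE replicate 1. The Ucp3 level was 36.4, 18.1 and 13.3 times that of Ucp2 in MI4KO and 6.37, 16.7 and 19.5 times in MI4OE. By rank of TPM, Ucp3 stood at position 572 to 1613 of the genes above 0 in each library. Ucp1 stood at 1152 of 15486 in MI4KO replicate 2.

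**Figure D2:**
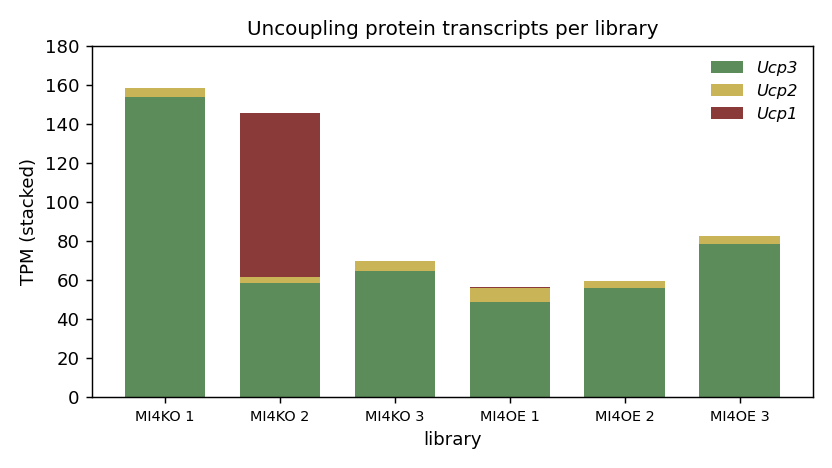
TPM of Ucp3, Ucp2 and Ucp1 stacked in each of the 6 libraries. Ucp3 forms most of the bar in 5 libraries, Ucp1 forms 57.7% of it in MI4KO replicate 2, and the tallest bar is MI4KO replicate 1 at 158 TPM.

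Cidea, a protein of lipid droplets in brown and beige adipocytes, was high in 2 libraries of opposite genotype. It had 8, 626 and 10 counts in MI4KO and 153, 6 and 8 counts in MI4OE. Its levels were 0.328, 24.8 and 0.336 CPM against 7.53, 0.210 and 0.353 CPM. MI4KO replicate 2 was 3.29 times MI4OE replicate 1, with an exact counting interval of 2.76 to 3.96, and the other 4 libraries of both genotypes lay at 0.353 CPM or less. Group means were 8.49 ± 14.1 CPM and 2.70 ± 4.18 CPM (SD, n = 3 each). Without MI4KO replicate 2 the MI4KO mean was 0.332 CPM, and without MI4OE replicate 1 the MI4OE mean was 0.282 CPM. The high Cidea of MI4OE replicate 1 came with 3 counts of Ucp1, while in MI4KO replicate 2 the TPM of Ucp1 was 1.96 times that of Cidea.

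Elovl3, which elongates very long chain fatty acids, had few counts in every library. Its counts were 11, 33 and 4 in MI4KO and 11, 5 and 4 in MI4OE, or 0.450, 1.31 and 0.134 CPM and 0.541, 0.175 and 0.177 CPM. MI4KO replicate 2 was again the highest, at 2.42 times MI4OE replicate 1, with an exact counting interval of 1.19 to 5.30, and the groups overlapped. Means were 0.631 ± 0.607 CPM and 0.298 ± 0.211 CPM (SD, n = 3 each). The log2 fold change of Elovl3 was -1.10 with a standard error of 0.86, and without MI4KO replicate 2 it was 0.00019.

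Dio2, which converts thyroxine to the active hormone, was low and had its highest value in the overexpressor. Its counts were 21, 27 and 20 in MI4KO and 61, 13 and 22 in MI4OE, or 0.860, 1.07 and 0.672 CPM and 3.001, 0.454 and 0.972 CPM. MI4OE replicate 1 was 2.81 times the next library, and the groups overlapped. Means were 0.867 ± 0.199 CPM and 1.48 ± 1.35 CPM (SD, n = 3 each). The log2 fold change of Dio2 was 0.75 with a standard error of 0.66, and it was -0.30 without MI4OE replicate 1.

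Prdm16, the zinc finger regulator of brown fat identity, varied in another way, with 1 low library in place of a high one. Its counts were 17, 72 and 75 in MI4KO and 74, 82 and 92 in MI4OE, or 0.696, 2.85 and 2.52 CPM and 3.64, 2.87 and 4.06 CPM. MI4KO replicate 1 was the low library, and it was not low for Ucp3, where it was the highest. The groups did not overlap in CPM, but MI4KO replicate 2 at 2.853 CPM and MI4OE replicate 2 at 2.866 CPM were nearly equal, and in TPM they crossed, at 0.62 and 0.59. Means were 2.02 ± 1.16 CPM and 3.52 ± 0.607 CPM (SD, n = 3 each). The log2 fold change of Prdm16 was 0.79 with a standard error of 0.48, with extremes of 0.38 without MI4KO replicate 1 and 1.11 without MI4KO replicate 2.

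Of the 7 genes, 5 passed the filter on low counts, and Ucp1 and Cidea did not, since each was high in fewer than 3 libraries. At an adjusted p under 0.05 by edgeR's quasi-likelihood test, 0 of the 5 were called, where 3 of 12660 genes tested, or 0.0237%, were called in all. At an unadjusted p under 0.05 the test called 0 of the 5, beside 7.58% of all genes, and edgeR's exact test and DESeq2 each called 0 after adjustment, beside 0.885% and 0.877%. With the study's own cut of 1.5-fold at an unadjusted p below 0.05, 0 of the 5 were higher in MI4OE and 0 were lower, beside 4.36% and 2.28% of all genes. The groups did not overlap in 1 of the 5, Prdm16, beside 12.9% of all genes tested. Because this contrast was known when the genes were chosen, nothing is read from these counts.

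**Figure D3:**
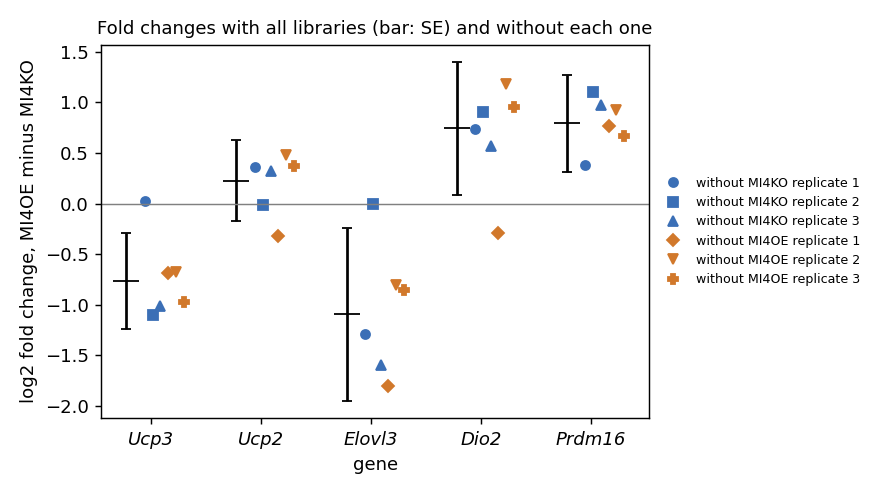
Log2 fold change, MI4OE minus MI4KO, of the 5 genes that passed the filter, with all libraries (black bar, with its standard error) and without each library in turn (symbols, blue for a left-out MI4KO library and orange for a left-out MI4OE library). Ucp3, Ucp2, Elovl3 and Dio2 cross 0 when 1 library is left out, and Prdm16 stays between 0.38 and 1.11.

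The genes were also ordered by mean TPM within each group. In MI4KO the order was Ucp3 at 92.5 ± 53.5 TPM, Ucp1 at 28.1 ± 48.5, Cidea at 14.6 ± 24.5 and Ucp2 at 4.12 ± 0.836. Elovl3 at 0.597 ± 0.652, Prdm16 at 0.400 ± 0.262 and Dio2 at 0.240 ± 0.0872 followed (SD, n = 3). Ucp1 and Cidea hold their places through MI4KO replicate 2 alone, since MI4KO replicates 1 and 3 were at 0 and 0.07 TPM for Ucp1 and at 0.41 and 0.50 TPM for Cidea. Only Ucp2 and Elovl3, among neighbours in that order, lay further apart than 1 SD on each side. In MI4OE the order was Ucp3 at 61.1 ± 15.6 TPM, Ucp2 at 5.01 ± 2.31, Cidea at 3.82 ± 5.83 and Prdm16 at 0.677 ± 0.117. Dio2 at 0.397 ± 0.331, Elovl3 at 0.263 ± 0.162 and Ucp1 at 0.060 ± 0.072 came last (SD, n = 3). Only Ucp3 and Ucp2 lay further apart there than 1 SD on each side.

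The brown fat genes were then read library by library. By CPM, 5 of 12 brown adipocyte markers were highest in MI4KO replicate 2, and these were Ucp1, Cidea, Elovl3, the beta-3 adrenergic receptor gene Adrb3 and the potassium channel gene Kcnk3. Another 4 were highest in MI4OE replicate 1, and 1 each in MI4KO replicate 3, MI4OE replicate 2 and MI4OE replicate 3. Of the 14955 genes with at least 10 counts in all, 19.8% were highest in MI4KO replicate 2 and 31.1% in MI4OE replicate 1. The count for MI4OE replicate 1 is thus near the share of all genes, and it holds 1 member, Dio2, beside Ppargc1a, Ebf2 and Cox8b. That for MI4KO replicate 2 holds 3 of the genes selected on these libraries, so that 2 of 7 remain without the members. Adrb3 was at 0, 3.05 and 0.82 TPM in MI4KO and at 0.03, 0.04 and 0 TPM in MI4OE. Kcnk3 was at 0.15, 1.66 and 0.70 TPM against 0.34, 0.28 and 0.12 TPM.

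Of the 18 other brown fat effector genes found in the table, 8 were highest in MI4KO replicate 2, beside the 19.8% of all genes with at least 10 counts. Besides Adrb3 and Kcnk3 these were Otop1, Slc27a2, Letmd1, Gyk, Aspg and S100b, named after their values were seen. Otop1 was at 1.2 TPM there and at 0.24 TPM at most elsewhere, the acyl-CoA synthetase gene Slc27a2 at 1.41 and 0.26, and S100b, which Schwann cells also express, at 5.71 and 2.92. Of the 12 identity regulators on the list, 0 were highest in that library by CPM and 1, Bmp7, was by TPM, at 0.52 there and 0.46 at most elsewhere. Ebf2, a factor of brown preadipocytes, was at 0.09, 0.44 and 0.39 TPM in MI4KO and at 0.52, 0.49 and 0.57 TPM in MI4OE. Zic1, a marker of classical brown fat, was at 0.14 TPM in MI4KO replicate 2 and highest in MI4KO replicate 3 at 1.64 TPM. Lhx8, another such marker, was at 0 in 5 libraries and had 1 count in MI4OE replicate 2.

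Ppargc1a and Cox8b, which muscle also expresses, were not highest in the library that held Ucp1. Ppargc1a, the coactivator of mitochondrial biogenesis, was at 5.11, 5.41 and 4.31 TPM in MI4KO and 6.34, 4.74 and 4.60 TPM in MI4OE. Cox8b, a cytochrome c oxidase subunit of heart, muscle and brown fat, was lower in MI4KO replicate 2, at 1805 TPM, than in MI4KO replicates 1 and 3, at 2141 and 2414 TPM. Its highest value was 4436 TPM in MI4OE replicate 1, where the slow fibre markers were also highest, and the part of these fibres in it was not tested. Neither gene passed edgeR's quasi-likelihood test between the genotypes, with adjusted p of 0.992 and 0.871.

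General adipocyte markers mostly had their highest level outside the library that held Ucp1. Adipoq, which encodes adiponectin, was at 11.2, 28.7 and 114 TPM in MI4KO and at 1.17, 9.18 and 2.05 TPM in MI4OE. It was thus highest in MI4KO replicate 3, where Ucp1 had 2 counts, and next highest in MI4KO replicate 2, which held Ucp1. Of the 14 adipocyte markers, 0 were highest in MI4KO replicate 2 by CPM and 1, Acsl1, was by TPM. The perilipin gene Plin1 was at 21.0 TPM in MI4KO replicate 2, at 33.1 TPM in MI4KO replicate 3 and at 0.54 to 4.03 TPM in the other 4 libraries. Cfd, which encodes adipsin, was at 139 TPM, 581 TPM and 6.17 to 30.7 TPM in the same order. Ucp1 was 2.93 times Adipoq in TPM in MI4KO replicate 2 and 0.12 times or less in the other libraries. Cidea was 1.495 times Adipoq in MI4KO replicate 2 and 9.02 times in MI4OE replicate 1, where Adipoq was at its lowest, and between 0.0044 and 0.273 times in the other 4. The 2 libraries with high Cidea thus held unequal Adipoq, 28.7 and 1.17 TPM, and the part of fat cells in these levels was not tested.

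**Figure D4:**
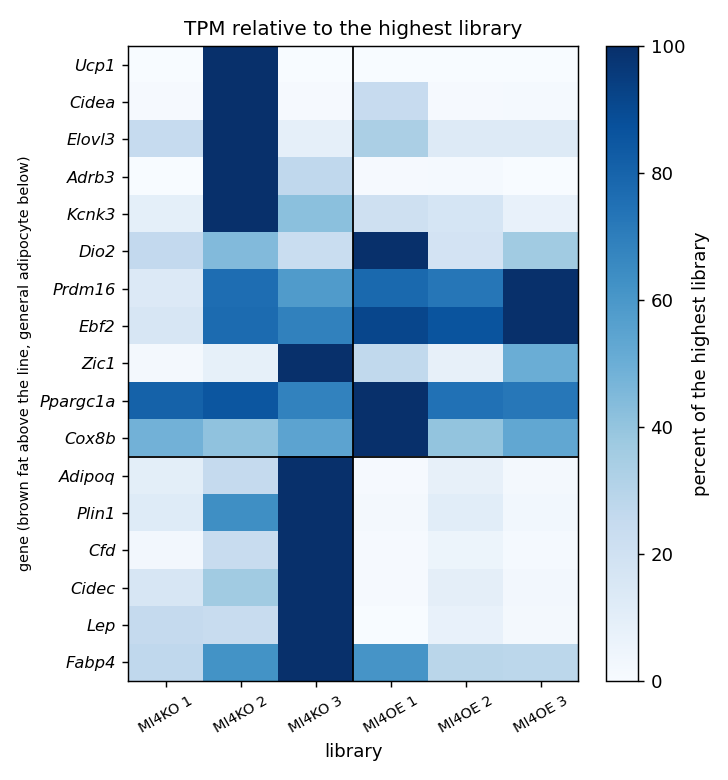
TPM of 11 brown fat genes (above the line) and 6 general adipocyte genes (below it) in each library, as a percent of the library where that gene was highest. Ucp1, Cidea, Elovl3, Adrb3 and Kcnk3 reach 100% in MI4KO replicate 2, where Adipoq is at 25.2%, and the 6 adipocyte genes reach 100% in MI4KO replicate 3, where Ucp1 is at 0.08%.

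Lists of related genes were then tested between the genotypes, and 146 listed genes beside the members could be tested. Of these, 0 had an adjusted p under 0.05 by edgeR's quasi-likelihood test. An unadjusted p under 0.05 by the same test was reached by 38, or 26.03%, beside 7.58% of all genes. Of the 38, 23 were higher and 15 lower in MI4OE. The lists were chosen with earlier results of these data known, so nothing is read from their counts or shares. After adjustment, edgeR's exact test called 10 and DESeq2 called 7. The counts below use the 1.5-fold criterion, which 4.36% of all genes met as higher and 2.28% as lower, and the median log2 fold change of all genes tested was -4.3e-05.

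Among mitochondrial carriers related to the uncoupling proteins, 0 of 8 met the criterion in either direction, and the median log2 fold change was 0.086. The count was 1 lower without MI4KO replicate 1, MI4KO replicate 2 or MI4OE replicate 1, and 1 higher without MI4OE replicate 2. The median was -0.13 without MI4OE replicate 1, -0.044 without MI4KO replicate 2 and 0.26 without MI4OE replicate 2. Slc25a4, the muscle ADP/ATP carrier and the most abundant of them, was at 5900 ± 664 TPM in MI4KO and 6959 ± 1666 TPM in MI4OE (SD, n = 3 each). Slc25a27 and Slc25a14, also called Ucp4 and Ucp5, had log2 fold changes of 0.16 and -0.41, and Slc25a30 had -0.59, with adjusted p of 0.883, 0.848 and 0.853 in edgeR's quasi-likelihood fit. Slc25a30 was at 1.72 TPM in MI4OE replicate 1 and at 7.64 to 15.6 TPM in the other 5 libraries.

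Of 11 brown fat identity regulators tested, 0 were higher and 1, Pparg, was lower, with a median of 0.50. Pparg, the nuclear receptor of all fat cells, had a log2 difference of -1.31 (adjusted p 0.626, edgeR's quasi-likelihood test). The count was 4 higher and 0 lower without MI4OE replicate 2, 1 higher and 0 lower without MI4KO replicate 2, and 0 higher and 2 lower without MI4OE replicate 1. Of 10 effectors tested, 0 were lower and 1 was higher, the fatty acid binding protein gene Fabp3, with a log2 fold change of 2.18 (adjusted p 0.654). Fabp3 was at 7543 TPM in MI4OE replicate 1 and at 517 to 1552 TPM in the other libraries, and the effector median of 0.40 became -0.16 without that library, as the regulator median became -0.13. The effector count was 0 higher and 3 lower without MI4KO replicate 1, and 3 higher and 1 lower without MI4OE replicate 2. It was 1 higher and 3 lower with no filter on low counts, and 0 higher and 1 lower with a filter of a mean CPM of at least 1. Among 6 beige adipocyte markers tested, 0 were higher and 1, the amino acid transporter gene Slc36a2, was lower. Slc36a2 was at 0.66, 6.72 and 2.76 TPM in MI4KO and at 0.19, 1.19 and 0.23 TPM in MI4OE, highest in the library that held Ucp1, and the count was 0 without that library or without MI4OE replicate 3 and 2 without MI4OE replicate 1. Its log2 fold change was -2.59 (adjusted p 0.546).

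Heat production without UCP1, by calcium or creatine cycling, is known in muscle and beige fat. Of 11 such genes tested, 3 met the criterion as higher in MI4OE and 0 as lower, with a median of 0.91. They were Sln, whose product sarcolipin uncouples the calcium pump, the slow fibre and heart calcium pump gene Atp2a2 and the creatine kinase gene Ckb. Sln was at 0.54, 1.44 and 2.49 TPM in MI4KO and at 8.12, 3.61 and 2.77 TPM in MI4OE, a log2 fold change of 1.68 ± 0.65 (SE, adjusted p 0.612, edgeR's quasi-likelihood test). Atp2a2 was at 145 TPM in MI4OE replicate 1 and at 6.57 to 28.9 TPM in the other libraries. Without MI4OE replicate 1, and likewise without MI4KO replicate 1, 0 of the genes met the criterion. The count was 6 higher and 1 lower without MI4OE replicate 2, and 3 higher and 1 lower without MI4KO replicate 2. The median was 0.34 when MI4OE replicate 1 was left out.

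Ucp3 is a known target of PPAR receptors and fatty acids, so their response genes were listed with it. Of 19 tested, 3 (Acot1, Acot2 and Fabp3) were higher and 1 (Angptl4) was lower, with a median of 0.56. The count of higher genes was 0 without MI4KO replicate 1, without MI4KO replicate 2 or without MI4OE replicate 1, and 10 without MI4OE replicate 2, and the median was 0.070 when MI4OE replicate 1 was left out. Angptl4, an inhibitor of lipoprotein lipase, had a log2 difference of -1.95 (adjusted p 0.433, edgeR's quasi-likelihood test), and edgeR's exact test and DESeq2 both called it. Pdk4, a kinase that restrains pyruvate oxidation in fasting, was at 159, 102 and 76.4 TPM in MI4KO and at 141, 80.1 and 111 TPM in MI4OE. Like Ucp3, it was highest in MI4KO replicate 1, but MI4OE replicate 1, which was high for Pdk4, was not high for Ucp3. Its log2 fold change was -0.12 (adjusted p 0.968).

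Among the thyroid hormone genes, the lipogenic response gene Thrsp met the criterion as lower, and the median of the 9 tested was -0.21. Thrsp had a log2 difference of -1.37 (adjusted p 0.495, edgeR's quasi-likelihood test). Thrsp, which edgeR's exact test and DESeq2 both called, was highest in MI4KO replicate 2 at 67.9 TPM. Of the other deiodinase genes, Dio1 was at 0.03 TPM at most and Dio3 at 0.08 to 0.27 TPM, beside 0.14 to 0.77 TPM for Dio2. Of 6 elongase genes tested, 0 were higher and 1, Elovl6, was lower, with a log2 fold change of -1.88 (adjusted p 0.546). Elovl6, an enzyme of fat synthesis, was at 0.14, 1.23 and 0.62 TPM in MI4KO and at 0.16 to 0.19 TPM in MI4OE. It shared with Elovl3 its highest library, MI4KO replicate 2, and 0 elongase genes were lower without that library or without MI4OE replicate 3. Without MI4OE replicate 3, 1 elongase gene was higher, and without MI4KO replicate 1, 2 were lower.

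Among 6 tested genes of the CIDE family and lipid droplet coats, 0 were higher and 2, Cidec and Plin1, were lower, with a median of -0.47. Cidec, the family member of white fat, was at 9.85, 22.5 and 61.9 TPM in MI4KO and at 0.59, 5.88 and 1.53 TPM in MI4OE, so that its groups did not overlap. Its log2 fold change was -3.62 (adjusted p 0.477, edgeR's quasi-likelihood test), and the exact test called it. Cidea exceeded Cidec in the same libraries in which it was high, 1.91 times in MI4KO replicate 2 and 17.9 times in MI4OE replicate 1, and was at most 0.366 times Cidec elsewhere. Cideb, the liver form, was at 0.05 TPM at most. Of 14 tested PRDM16 relatives and partners, 0 were higher and 1, Cebpa, was lower, with a median of -0.087. Without MI4KO replicate 3 the count was 2 lower and the median was -0.15. Cebpa, a factor of fat cell differentiation, had a log2 difference of -2.51 (adjusted p 0.433), and edgeR's exact test and DESeq2 both called it.

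Markers of other cell types were counted by the same criterion. Of the 14 adipocyte markers, 10 met the criterion as lower in MI4OE and 0 as higher, with a median of -2.42. This count ran from 8 to 11 when 1 library was left out, and the median was -1.23 without MI4KO replicate 3. Adipoq had a log2 difference of -3.69 (adjusted p 0.503, edgeR's quasi-likelihood test). After adjustment edgeR's exact test called 6 of the 14, Adipoq among them, and DESeq2 called 3 of the 13 to which it gave an adjusted p. Of 10 endothelial markers, 6 met it as higher, with a median of 0.76, and their sum was 64.4 TPM in MI4KO replicate 1 and 117 to 223 TPM in the other libraries. Leaving out MI4KO replicate 1 gave an endothelial count of 2, leaving out MI4OE replicate 1 gave 3, and leaving out MI4OE replicate 2 gave 9. MI4KO replicate 1 was also the library low in Prdm16, and the part of vascular cells in that value was not tested. Of 9 slow fibre markers, 7 met it as higher, with a median of 6.20, and 0 did so without MI4KO replicate 1 or without MI4OE replicate 1. Their median was 2.96 without MI4OE replicate 1 and 3.41 with limma on log2(TPM + 1). Of 5 smooth muscle markers 3 met it as higher, with a median of 1.13, and of 10 muscle fibre and 11 macrophage markers 0 met it, with medians of -0.30 and -0.19. The muscle fibre count was 2 higher without MI4KO replicate 3 or without MI4OE replicate 2, and the muscle fibre median was -0.12 without MI4KO replicate 1.

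The genes most like each member over the 6 libraries were sought by the root mean square difference of their centred log2 CPM, where 0 means the same pattern. For Ucp2, whose own root mean square deviation was 0.52, Ndufb9 at 0.062 and Ndufb5 at 0.071 were among the nearest 3. Both encode subunits of respiratory complex I, and both were highest in MI4OE replicate 1 and lowest in MI4KO replicate 2. For Ucp3, with 0.66 of its own, they were Prickle3 at 0.16, Ifi205 at 0.19 and Fibin at 0.21, each highest in MI4KO replicate 1. For Dio2, with 0.78, they were Ppara at 0.14, Sftpb at 0.23 and Gm5595 at 0.24. Ppara, the fatty acid receptor, was at 28.2 CPM in MI4OE replicate 1 and at 6.61 to 12.7 CPM in the other libraries.

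For Prdm16, with 0.80 of its own, the nearest was Ebf2 at 0.11, before Iqsec3 at 0.13 and Fat4 at 0.15. Ebf2, which works beside PRDM16 in brown fat precursors, was at 0.368, 1.31 and 1.34 CPM in the knockout and at 1.92, 1.54 and 1.86 CPM in the overexpressor. It was thus low in the same library, MI4KO replicate 1, and its log2 fold change was 0.80 (adjusted p 0.765, edgeR's quasi-likelihood test). For Elovl3, with 0.95, no close gene was found, the nearest being Gm14391 at 0.40, C330027C09Rik at 0.43 and Hcn4 at 0.47. The nearest 3 of 12660 genes were sought for each member, over only 6 points.

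Prdm16 was the only one of the 7 genes with several transcripts in the annotation used, 4 against 1 for each of the others. By the RSEM estimates, NM_001177995 held 88.2%, 83.1% and 83.2% of its counts in MI4KO and 26.4%, 88.6% and 87.5% in MI4OE. In MI4OE replicate 1, NM_001291026 held 55.3% and NM_027504 held 12.5%, and both were at 0 in the other 5 libraries. NM_001291029 held the remaining 5.80% to 16.9%. The transcripts are 8433 to 8605 bases long, and at 17 to 92 counts per library RSEM divides few reads among them. The isoform shares of MI4OE replicate 1 thus rest on 74 counts.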

How the data were processed

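Gastrocnemius RNA of 3 MI4KO and 3 MI4OE mice was measured by stranded mRNA sequencing with single reads. Groups were taken from the genotype label. Reads, per the labels and the methods of the study, were demultiplexed with bcl2fastq 2.17, mapped to a UCSC transcript set with Bowtie2 2.1.0 and quantified with RSEM 1.2.15. The genome build was not given in the sources used here. The expected counts, deposited for genes and for transcripts, are estimates by RSEM without normalization. RSEM divides a read among the transcripts it matches, so near-identical genes and isoforms are uncertain. The deposited TPM values are RSEM abundances adjusted for transcript length. The authors also deposited tables of their own comparison, with signed fold changes, p-values, false discovery rates and scaled CPM. None of their values, including 12 library columns, was used.

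After rounding of the expected counts, 12660 of 24054 genes passed filterByExpr (minimum count 10, minimum total count 15). They were fitted with edgeR 4.0.16 in R 4.3.3 with TMM scaling, the quasi-likelihood test at its default settings and Benjamini-Hochberg adjustment over all genes tested. The same fit gave the genes that differed by 1.5-fold at an unadjusted p below 0.05, as the study required. Total counts were 18828605 to 29239585 per library. Confidence limits of 95% were computed by the exact Clopper-Pearson method, and like the floor of 3 counts they account for counting error alone. As alternatives, the filter was dropped or set to a mean CPM of 1, TMM was replaced by RLE or by total counts, and the test by edgeR's exact test, DESeq2 1.42.0 or limma 3.58.1 on log2(TPM + 1) and log2(TPM + 0.1). Fits without each library were also made. Likeness between genes used log2 CPM with a prior count of 2. Counts were simulated for 12660 genes, and of those passing the filter 95 had a 4-fold change, 101 a 2-fold change and 12275 none. The quasi-likelihood test called 63, 14 and 4 of these, edgeR's exact test 85, 41 and 37, and DESeq2 80, 40 and 42.

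The members and gene lists were chosen with earlier results of these data known. The text names the members, Irf4 and Gt(ROSA)26Sor, up to 4 genes per list with the highest mean TPM and any with an adjusted p under 0.05, a fixed set of fat cell markers and relatives, and the 3 genes most like each member, of which 1 is not reported here, as is 1 gene of the thyroid hormone list. Genes behind a count of 5 or fewer that this leaves out (Pparg, Atp2a2, Ckb, Acot1, Acot2, Angptl4, Cebpa, Bmp7, Acsl1 and Mt2), and AA465934, were named after their values were seen. Gk, Hacd1, Hacd2, Hacd3 and Adgre1 of the lists were not found under these symbols. Promoter sequences came from RefSeq, GRCm38.p6.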

Additional observations from a re-analysis of the deposited data

How the results depend on the processing

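The count of genes at an adjusted p under 0.05 was 3 and became 112 with edgeR's exact test, 111 with DESeq2 and 5 with limma on log2(TPM + 0.1), and 1 to 4 when 1 library was left out. The 3 were 2 higher and 1 lower in MI4OE, against 52 and 60 with the exact test, 50 and 61 with DESeq2, and 2 and 0 with total counts without TMM. The count at the 1.5-fold criterion was 841 and became 455 with limma on log2(TPM + 1), and it ran from 590 without MI4OE replicate 1 to 1314 without MI4OE replicate 2. The causes were not tested. The split of 552 higher and 289 lower became 582 and 230 with total counts without TMM, 298 and 330 without MI4KO replicate 1, and 305 and 285 without MI4OE replicate 1.

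When 1 library was left out, the log2 fold change ran from -1.10 to 0.022 for Ucp3, -0.32 to 0.48 for Ucp2, -1.81 to 0.00019 for Elovl3, -0.30 to 1.19 for Dio2 and 0.38 to 1.11 for Prdm16. The mean of Ucp1 ran from 0.034 to 35.5 CPM in MI4KO and from 0.017 to 0.091 CPM in MI4OE, and that of Cidea from 0.332 to 12.6 CPM and from 0.282 to 3.94 CPM. Ucp1 and Cidea had no fit under the filter used, so most alternatives gave no value for them. No paired analysis was possible because libraries were numbered by order of deposition alone. Elovl3, Dio2 and Prdm16 had fewer than 100 counts in every library, so their values carry a wide counting error. With limma on log2(TPM + 1), whose offset shrinks low genes, the differences were 0.15 for Dio2, 0.28 for Prdm16 and -0.27 for Elovl3. With log2(TPM + 0.1) they were 0.37, 0.80 and -0.59. Ucp3, which was not low, was at -0.48 with either offset. Ucp2 was at 0.35 with total counts without TMM.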

Other observations

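The libraries that stood apart did so in other genes too, by the same measure of at least 50 counts and 10 times the highest other library. In MI4KO replicate 3, where Adipoq was highest and Ucp1 had 2 counts, the leading genes were transcripts best known from liver: Apoa1 was 39.7 times, Apoa2 18.9 times and Serpina3k 13.1 times the next library or the floor. In MI4OE replicate 1, where Cidea and Dio2 were high, they included the slow fibre genes Myl3 at 13.9 times, Myl2 at 13.2 times and Tnni1 at 12.6 times. In MI4KO replicate 1, where Ucp3 was highest, Mt2 was at 123 CPM and 6.89 CPM at most elsewhere. These genes were chosen after their values were seen, and the thresholds were not tested.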
